A study of Mus musculus with 2 samples.

Results

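The 56 genes described here carry the mitotic cell cycle, and they were examined in a tissue in which most cells are neurons that no longer divide, the adult mouse cerebellum. They were chosen by name for their function, not for a measured value, as 56 of 21826 protein-coding genes of the GENCODE M21 annotation. Earlier results of these data were known when the genes, and the sequence words searched for below, were chosen. The 56 genes comprise 8 G1 cyclins and kinases, 20 genes of origin licensing and firing, 3 genes of DNA synthesis, 16 genes of G2 and mitosis, 7 genes of transcriptional control and 2 CDK inhibitors. The question asked of each was whether its promoter lay in accessible chromatin, how high its peak stood among all accessible promoters, and what lay in the DNA under it.

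Chromatin accessibility was measured by DNase-seq, in which nuclei are treated with the nuclease DNase I and the cut ends are sequenced. There was 1 group of samples: cerebellum from 2 male B6CASTF1/J mice, first-generation hybrids of C57BL/6J and CAST animals, 36 days old, with 1 library from each. The labels call them biological replicates 1 and 2 and list the same donor entry for both, so the spread between them may be technical. With 1 group and no other condition, no test was made: values are given for replicate 1 and then replicate 2, and differences between genes are described against the difference between the animals.

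A cell that leaves quiescence passes through G1 when D-type and E-type cyclins activate their kinases, which phosphorylate the retinoblastoma proteins and free the E2F transcription factors to switch on the genes of DNA replication. In cells that have left the cycle, the DREAM complex, built from a retinoblastoma-like protein, a repressive E2F and the MuvB core, sits on many of the same promoters and keeps them off. It is brought there by E2F sites or by an element named CHR (cell cycle genes homology region). The CHR is typical of genes used in mitosis, where it is often found with boxes for the activator NF-Y. An accessible promoter can therefore hold activators or repressors, and a peak does not measure transcription. In bulk tissue, fewer cells with an accessible promoter and less accessibility per cell cannot be told apart.

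The labelled tissue was checked against marker genes. All 5 genes of mature granule cells, the most numerous neurons of the cerebellum, had a promoter peak in both animals. Their heights ran from 1.91 and 5.36 at Gabra6, through 9.4 and 4.87 at Rbfox3, 13.3 and 9.58 at Zic1 and 20.6 and 12.6 at Neurod1, to 27.9 and 17.1 at Cbln3. None of 5 liver genes and none of 5 microglial genes had one in either animal. Of cells that still divide, granule cell precursors normally disappear in the first weeks after birth: their 5 markers all had a peak, at 8.11 and 6.67 for Gli1, 7.39 and 6.65 for Ptch1, 5.79 and 3.13 for Mycn, 3.79 and 2.13 for Gli2, and 0.65 and 0.484 for Atoh1, the one that defines them. Of 5 markers of oligodendrocyte precursors, Pdgfra, Olig1 and Olig2 had low peaks (0.632 to 2.6), and Cspg4 and Sox10 had none in either animal. How far such cells contribute to the peaks of cell cycle genes was not tested.

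Nearly every cell cycle gene had an accessible promoter. A promoter was taken as the 1 kb on each side of any start of a protein-coding transcript, and it was called accessible when a peak of the animal's larger peak list touched it. By this measure 56 of 56 members were accessible in replicate 1 and 55 of 56 in replicate 2, against a background of 67% and 63.5% of all genes. In both animals together the count was 55 of 56, against 62.9% of all genes. The gap was Ccnd1, the gene of cyclin D1, in replicate 2. All genes were also divided into 5 classes of CpG density, of which classes 3, 4 and 5, the densest, held 16, 20 and 19 members. In these classes 89.4%, 96.6% and 98.4% of all genes were accessible in replicate 1. The shares in replicate 2 were 83.9%, 93.6% and 96.2%. Beside genes of like CpG density, the members' excess was thus much smaller than beside all genes.

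The heights were ordinary to moderately high. The median height of accessible members, in the authors' signal units, was 11.7 in replicate 1 and 7.93 in replicate 2, against 9.1 and 6.65 over all accessible promoters. Expressed as a percentile among all accessible promoters of the same animal, the median member stood at 59.7 and 57.4, where the median of all is 50 by construction. The middle 50% of members had heights of 6.75 to 16.7 in replicate 1, and of 5.26 to 10.8 in the other animal.

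The members were scarce at the low end rather than crowded at the high end. In both animals, 11 of the 55 members (20%) stood in the top 25% of all accessible promoters, as did 22.7% of all genes open in both, and 2 members (3.64%) stood in the bottom 25%, as did 19.7% of all. The animals ranked the members alike: the median difference in percentile was 4.03 points, and Spearman's rho of the heights across genes was 0.957 for the 55 members and 0.976 for the 13731 genes open in both. This is a description across genes, which are not replicates. The widest difference was at Top2a, 23.6 points.

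**Figure D1:**
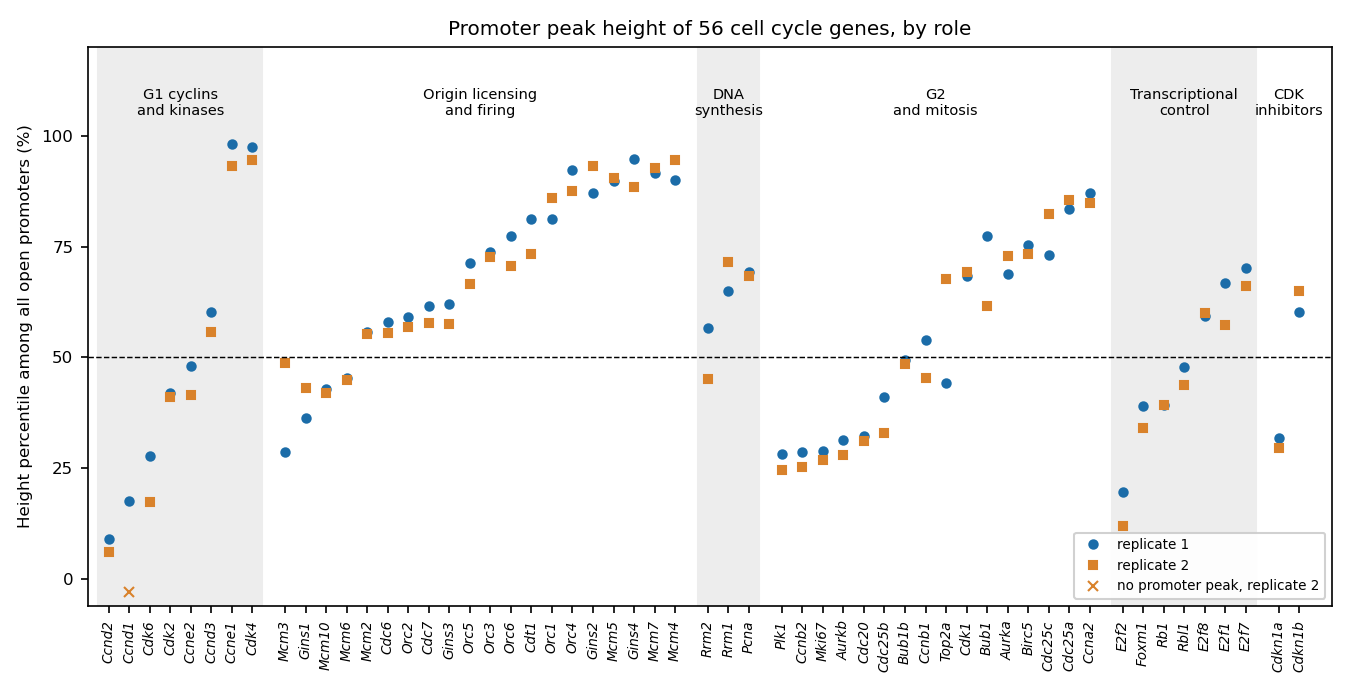
Each column is a member, grouped by role and ordered within it; the vertical axis is the percentile of its highest promoter peak among all accessible promoters of the same animal (circles, replicate 1; squares, replicate 2), with the median of all promoters dashed at 50 and a cross for a promoter with no peak. Of the 20 licensing genes 16 lie above the dashed line in both animals, while the G1 genes run from Ccnd2 at 9.09 and 6.01 to Cdk4 at 97.4 and 94.5.

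The G1 cyclins and kinases, which decide whether a cell enters the cycle, had the widest spread of any role. Ccne1, whose product cyclin E1 activates Cdk2 at the start of S phase, had a peak of height 32.4 in replicate 1 and 16.6 in replicate 2, at percentiles 98.1 and 93.1. Cdk4, the kinase partner of the D cyclins, had 30.9 and 17.5 (percentiles 97.4 and 94.5). Both were higher than nearly all promoters in both animals.

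At the other end stood the cyclins that pair with Cdk4. Ccnd2, the gene of cyclin D2, had its highest promoter peak at 0.607 and 0.484, percentiles 9.09 and 6.01, the lowest of all members accessible in both animals. Ccnd1 had a promoter peak of 1.36 in replicate 1, percentile 17.5, and none in replicate 2. Cdk6, the other partner kinase of the D cyclins, had 3.36 and 1.43 (percentiles 27.7 and 17.4), although its promoter windows held 7 and 8 separate peaks. The partner kinases thus stood at opposite ends of the scale, and the third D cyclin, Ccnd3, lay near the middle at 11.9 and 7.62 (percentiles 60.3 and 55.7).

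Ccne2, the gene of cyclin E2, reached 8.61 and 5.21 (percentiles 48.1 and 41.4). Cdk2, the kinase of the E cyclins, reached 7.11 and 5.17 (percentiles 42 and 41.2), from a peak that also lies in the promoter window of the neighbouring Pmel. The median G1 gene stood at percentile 45 among the 8 in replicate 1 and 41.4 among the 7 in replicate 2.

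The Ccnd1 gap went beyond the choice of peak list. In the false discovery rates that the authors deposited for each animal, 1238 bases of the Ccnd1 promoter window lay in stretches below 0.05 in replicate 1, and 0 bases in replicate 2. Over the gene and 10 kb on each side the bases were 6293 in replicate 1 and 976 in replicate 2, a ratio of 6.45. The median of this ratio over the 56 members was 1.03, and the next highest was 2.54, at Ccnd2. At Ccnd1 and Ccnd2, replicate 1 thus had more such bases, and the ratio was higher there than at any other member.

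The genes that build and fire replication origins had the highest peaks of any role at the median, though only narrowly in replicate 2. Their 20 promoters were all accessible in both animals, with a median height of 15.6 and 9.92 against 9.1 and 6.65 over all promoters, and a median percentile of 72.6 and 68.6. The 3 genes of DNA synthesis were close in replicate 2, with a median height of 9.84 and a median percentile of 68.2. Of the 20, 6 shared the peak with the promoter window of another gene (30%), against 17.2% and 17.9% of all accessible promoters.

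The origin recognition complex, which marks origins, stood at a median percentile of 75.6 and 71.6 over its 6 genes, all above the median promoter in both animals. Orc4 had 24.8 and 14.4 and Orc1 18.8 and 14, and both are among 4 Orc genes whose peak also lies in the promoter window of a neighbour: Orc1 with Prpf38a, Orc3 with Rars2, Orc4 with Mbd5 and Orc6 with Vps35. Orc6 had 17.3 and 10.3, Orc3 16 and 10.7, Orc5 15.2 and 9.56 and Orc2 11.6 and 7.83, so the 6 subunits lay closer together than those of the helicase. Cdc6 and Cdt1, the factors that load the helicase onto marked origins, had 11.3 and 7.59 and 18.8 and 10.9.

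The MCM2-7 helicase, which unwinds DNA at the fork, stood at a median percentile of 72.8 and 72.9 over its 6 genes. Its members were far apart: Mcm7 had 24.4 and 16.5 from a peak shared with Ap4m1, Mcm4 23.3 and 17.5 from one shared with Prkdc, and Mcm5 23.2 and 15.6 from a peak of its own. Mcm2 had 10.6 and 7.53, Mcm6 7.91 and 5.75, and Mcm3, the lowest licensing gene by mean percentile, 3.62 and 6.41 (percentiles 28.7 and 48.6). Subunits that act in one ring thus had promoter peaks from the lower to the highest range, and the order of Mcm3 and Mcm6 differed between the animals.

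The GINS complex, which joins the helicase when an origin fires, showed the same spread. Gins4 had 27.1 and 14.8 and Gins2 21.6 and 16.6, while Gins3 had 12.4 and 7.93 and Gins1 5.56 and 5.47. Cdc7, the kinase that triggers firing, had 12.3 and 7.99, and Mcm10, which stabilises the fork, had 7.27 and 5.3.

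The E2F consensus was searched for as the words TTTCCCGC, TTTCGCGC, TTTGCCGC and TTTGGCGC on both strands, from 250 bases before to 50 after the principal start. It was present at 17 of 56 members (30.4%), against 2.89% of all genes and 5.09% of the genes in the top 2 of 5 classes of CpG density. Of the 17, 9 were among the 20 licensing genes. The same words written backwards, which have the same base composition but in some cases more CpGs, were present at 4 of 56 members (7.14%) and 2.65% of all genes.

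The footprint files show where a protein may sit: a footprint is a short stretch inside accessible DNA that is cut less than its surroundings. Footprinted sites were counted over all peaks of a promoter window, not only near the principal start, and a site counted when its central base lay in a footprint. In 6 members the same E2F site was footprinted in both animals (10.7%), against 0.903% of all genes and 1.75% in the top 2 CpG classes. The 6 were 5 licensing genes, Orc1, Mcm3, Mcm5, Mcm6 and Gins1, and the phosphatase gene Cdc25a. The same backwards site was footprinted in both animals at 3 members (5.36%), against 1.13% of all genes and 1.87% in the top 2 CpG classes. The E2F sites are printed because they carry that overlap. Each line gives one site with its flanks on the gene's own strand of mm10, with the word in capitals; where a palindrome gives overlapping words, one is capitalised.
Orc1, chr4:108579416-108579445 (+), 24 bases before the nearest start: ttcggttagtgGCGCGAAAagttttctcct
Mcm3, chr1:20820275-20820304 (-), 23 bases after the start: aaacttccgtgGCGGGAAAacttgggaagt
Mcm3, chr1:20820256-20820285 (-), 42 bases after the start: acttgggaagtTTTGGCGCcaaggcggtgt
Mcm5, chr8:75109345-75109374 (+), 210 bases before the start: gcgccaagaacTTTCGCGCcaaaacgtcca
Mcm6, chr1:128359797-128359826 (-), 147 bases before the start: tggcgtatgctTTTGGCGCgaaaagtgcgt
Gins1, chr2:150909574-150909603 (+), 6 bases before the start: ggttgagcctaTTTGGCGCcaaagcgagga
Cdc25a, chr9:109875501-109875530 (+), 64 bases before the start: ggtgaattccgTTTGGCGCcaactaggaaa

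Among the licensing genes, the E2F words in promoter peaks lay in a footprint at 9 of 16 sites in each animal (56.2%). Overlapping words count as separate sites in every group. The 9 include such pairs, each in a shared footprint, at Mcm5, Mcm6 and Gins1, so they are fewer separate places. Over all members the counts were 10 of 27 sites in replicate 1 (37%) and 11 of 26 in replicate 2 (42.3%), against 29.1% and 26.9% of such sites over all genes. The backwards words gave 3 of 7 and 5 of 7 sites at members, too few to set beside these shares. Over all genes the backwards words lay in a footprint at 36.6% and 36.5% of sites, more often than the E2F words. Overlap with a footprint was thus not particular to the E2F word. The backwards words are not matched for CpG, so they do not say what overlap to expect of the E2F words. A footprint at a word does not say which protein is there.

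Mcm3 and Mcm5 show how differently a pair of partners in the helicase can be laid out. The windows from 250 bases before to 50 after the start are printed 5′ to 3′ on the gene's strand, with capitals for bases in footprints of both animals. The reference is the C57BL/6J genome, and the CAST copy carried by these hybrids may differ from it.
Mcm3, chr1:20820263-20820562 (-): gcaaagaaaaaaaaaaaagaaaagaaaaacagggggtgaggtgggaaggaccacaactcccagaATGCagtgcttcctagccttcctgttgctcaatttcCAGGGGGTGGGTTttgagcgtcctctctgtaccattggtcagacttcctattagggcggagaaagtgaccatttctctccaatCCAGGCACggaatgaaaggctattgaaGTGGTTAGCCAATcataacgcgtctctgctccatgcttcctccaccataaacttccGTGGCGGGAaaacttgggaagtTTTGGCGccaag
Mcm5, chr8:75109319-75109618 (+): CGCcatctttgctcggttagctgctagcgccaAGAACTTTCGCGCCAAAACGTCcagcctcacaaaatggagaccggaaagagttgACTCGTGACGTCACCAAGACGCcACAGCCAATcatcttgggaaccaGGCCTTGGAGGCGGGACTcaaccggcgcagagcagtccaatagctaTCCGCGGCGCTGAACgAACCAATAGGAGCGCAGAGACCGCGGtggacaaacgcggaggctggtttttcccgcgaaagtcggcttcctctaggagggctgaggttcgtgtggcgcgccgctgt

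In Mcm5, 115 of 300 bases lay in footprints of both animals, in blocks that hold the pair of overlapping E2F words, a CRE word (TGACGTCA, the site of the CREB family) and both footprinted NF-Y boxes. A further E2F word of Mcm5, just before the start, lay outside them. In Mcm3 the count was 54 of 300 bases, with the NF-Y box 30 bases before the start in one block and most of each E2F word after the start in others. The lower gene of the pair was thus also the one with fewer shared footprinted bases.

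The 3 genes of DNA synthesis had promoters above the median in most cases. Pcna, the sliding clamp of the polymerases, had 14.5 and 9.84 (percentiles 69.3 and 68.2). Rrm1, the large subunit of ribonucleotide reductase, had 13.3 and 10.4 (65 and 71.4), and Rrm2, its small subunit, whose level is tied to S phase, had 10.8 and 5.8 (56.5 and 45.1). None of the 3 held an E2F word near the start.

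The genes of G2 and mitosis were all accessible, and they spread from the low to the high range. The median percentile of the 16 was 51.6 and 55.1, and 7 of them stood above the median promoter in both animals. By mean percentile Ccna2 (cyclin A2) was highest at 21.7 and 13.6 (percentiles 87.1 and 84.7), followed by Cdc25a at 19.8 and 13.8, the phosphatase that activates cyclin-dependent kinases. Cdk1 itself, the kinase of mitotic entry, had 14.2 and 10 (68.3 and 69.3), and Birc5 (survivin) had 16.5 and 10.9. Of the other CDC25 phosphatase genes, Cdc25c had 15.8 and 13 and Cdc25b 6.88 and 3.87, from a peak shared with Spef1.

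The 5 lowest of these 16 genes by mean percentile were Plk1, Ccnb2, Mki67, Aurkb and Cdc20. Plk1, the polo-like kinase, had 3.51 and 2.5 (percentiles 28.3 and 24.7). Ccnb2 (cyclin B2) had 3.6 and 2.59, and Mki67, which encodes the Ki-67 antigen, had 3.65 and 2.86 (28.8 and 26.9). Aurkb, the kinase of the chromosomal passenger complex, had 4.31 and 3.01, and Cdc20, an activator of the anaphase-promoting complex, had 4.55 and 3.56.

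These 5 lay between percentiles 24.7 and 32.2 in both animals, below the median promoter but well inside the accessible range. The related kinase gene Aurka was higher at 14.4 and 10.7, from a peak it shares with Cstf1. Ccnb1 (cyclin B1) had 10.1 and 5.82 and the spindle checkpoint kinase genes Bub1 and Bub1b had 17.3 and 8.64 and 8.91 and 6.39. Top2a, the topoisomerase of chromosome condensation, had 7.61 in replicate 1 and 9.76 in replicate 2 (percentiles 44.2 and 67.8). Like Mcm3, it ranked higher among the promoters of replicate 2. Its highest peaks in the animals overlapped only in part.

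The CHR element was found mainly at the mitotic genes. Searched for as TTTGAA and TTCGAA on both strands in the same window, it was present at 12 of 16 mitotic genes (75%) and 2 of 20 licensing genes (10%), against 17.3% of all genes and 10.1% of those in the top 2 CpG classes. The backwards words AAGTTT and AAGCTT, the latter without the CpG of TTCGAA, were present at 2 of 16 mitotic genes (12.5%) and 19.3% of all genes. The NF-Y box CCAAT was present at 14 of the 16 (87.5%) and at 37 of all 56 members (66.1%), against 38.6% of all genes; backwards, as TAACC, it was present at 32.1% of members and 24.5% of all genes.

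The same CHR site lay in a footprint of both animals at 7 members (12.5%), against 0.655% of all genes and 1.1% in the top 2 CpG classes. Of the 7, 6 are mitotic genes (37.5% of the 16). The same backwards site lay in a footprint of both animals at 2 members (3.57%), against 0.761% of all genes and 1.14% in the top 2 CpG classes. The sites are printed with their flanks on the gene's strand of mm10, the CHR word in capitals.
Cdk1, chr10:69352910-69352939 (-), 14 bases after the start: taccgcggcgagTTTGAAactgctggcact
Aurkb, chr11:69045636-69045665 (+), 2 bases before the nearest start: tagagcgggagaTTCGAAagcgtccgggtc
Bub1, chr2:127831828-127831857 (-), 23 bases after the start: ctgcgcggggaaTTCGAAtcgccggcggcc
Bub1b, chr2:118598239-118598268 (+), 42 bases after the nearest start: agagacgttaaaTTTGAAacttggcggccc
Birc5, chr11:117849289-117849318 (+), 16 bases before the nearest start: ccgcccgcgcgaTTTGAAtcctgcgtttga
Top2a, chr11:99024292-99024321 (-), 117 bases before the start: ggcggtcttttgTTCGAAtaaaagacgatc
Mcm7, chr5:138172039-138172068 (-), 235 bases before the nearest start: gcgagcattaatTTCGAAccgcgggaaaca

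In 5 of the 6 mitotic genes the footprinted CHR word lay from 16 bases before to 42 bases after a start. Over mitotic genes, CHR words in promoter peaks lay in a footprint at 6 of 14 sites in replicate 1 (42.9%) and 10 of 16 in replicate 2 (62.5%), against 11.8% and 9.8% of such sites over all genes. A footprinted NF-Y box stood beside the CHR word in 4 of these genes, at a distance of 66 bases in Cdk1, 52 in Aurkb, 57 in Bub1 and 21 in Top2a.

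Of the E2F, CHR and NF-Y words, the NF-Y box was footprinted at the most members. It also had the most sites in their promoter peaks, 93 and 92, against 27 and 26 for E2F and 28 and 29 for CHR. The same box lay in a footprint of both animals at 18 members (32.1%), against 7.42% of all genes and 11.9% in the top 2 CpG classes. The same backwards site did so at 10.7% of members, 1.73% of all genes and 2.78% in the top 2 CpG classes. The 18 were Ccne2 among the G1 genes, Orc1, Orc2, Mcm3, Mcm5, Mcm7, Mcm10 and Gins3 among the licensing genes, Ccnb1, Cdk1, Cdc25a, Cdc25c, Aurkb, Bub1 and Top2a among the mitotic genes, and E2f7, E2f8 and Foxm1 among the controllers. Counted by site in the members' promoter peaks, the box lay in a footprint at 31.2% and 33.7%. The shares by site were 37% and 42.3% for the E2F words and 28.6% and 37.9% for the CHR words. The backwards NF-Y word lay in a footprint at 30.4% and 26.1% of 23 sites in each animal. Over all genes the shares were 25.2% and 23.9% for the box and 12.8% and 11.4% for the backwards word. By site, the NF-Y box and its backwards word were thus close at members but not over all genes.

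The low peak of Aurkb still held these elements in footprints. Aurkb, at percentiles 31.5 and 27.9, and Cdk1, at 68.3 and 69.3, both carried a footprinted CHR word and a footprinted NF-Y box. Their windows are printed as before, with capitals for bases in footprints of both animals, together with that of Top2a, in which NF-Y boxes repeat.
Aurkb, chr11:69045397-69045696 (+): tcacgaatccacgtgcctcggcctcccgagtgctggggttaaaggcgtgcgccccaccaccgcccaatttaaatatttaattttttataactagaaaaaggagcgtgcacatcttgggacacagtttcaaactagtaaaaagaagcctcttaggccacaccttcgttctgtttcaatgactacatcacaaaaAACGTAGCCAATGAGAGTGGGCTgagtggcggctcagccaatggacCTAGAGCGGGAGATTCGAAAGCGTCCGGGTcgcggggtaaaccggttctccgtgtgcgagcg
Cdk1, chr10:69352889-69353188 (-): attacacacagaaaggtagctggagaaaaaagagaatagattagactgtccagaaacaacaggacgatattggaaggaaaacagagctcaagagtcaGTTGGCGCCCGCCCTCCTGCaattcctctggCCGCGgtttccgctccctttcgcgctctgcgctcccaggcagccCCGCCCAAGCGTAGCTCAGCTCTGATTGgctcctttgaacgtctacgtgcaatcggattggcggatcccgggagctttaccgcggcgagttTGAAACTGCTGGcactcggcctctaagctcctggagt
Top2a, chr11:99024140-99024439 (-): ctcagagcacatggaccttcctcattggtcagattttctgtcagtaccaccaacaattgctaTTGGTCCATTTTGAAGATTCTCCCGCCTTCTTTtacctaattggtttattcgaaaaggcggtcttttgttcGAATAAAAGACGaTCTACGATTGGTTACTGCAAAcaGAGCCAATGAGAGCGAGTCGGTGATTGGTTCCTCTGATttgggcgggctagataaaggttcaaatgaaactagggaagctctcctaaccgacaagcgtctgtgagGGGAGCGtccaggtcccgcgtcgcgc

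In Aurkb only 53 of the 300 bases lay in footprints of both animals, in a block on an NF-Y box and another on the CHR word. In Top2a the count was 111 bases, and 3 NF-Y boxes, 56, 76 and 96 bases before the start, lay in footprints of both animals. In Cdk1 it was 65 bases, including the box 52 bases before the start. GENCODE places no other protein-coding gene in these 3 windows.

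**Figure D2:**
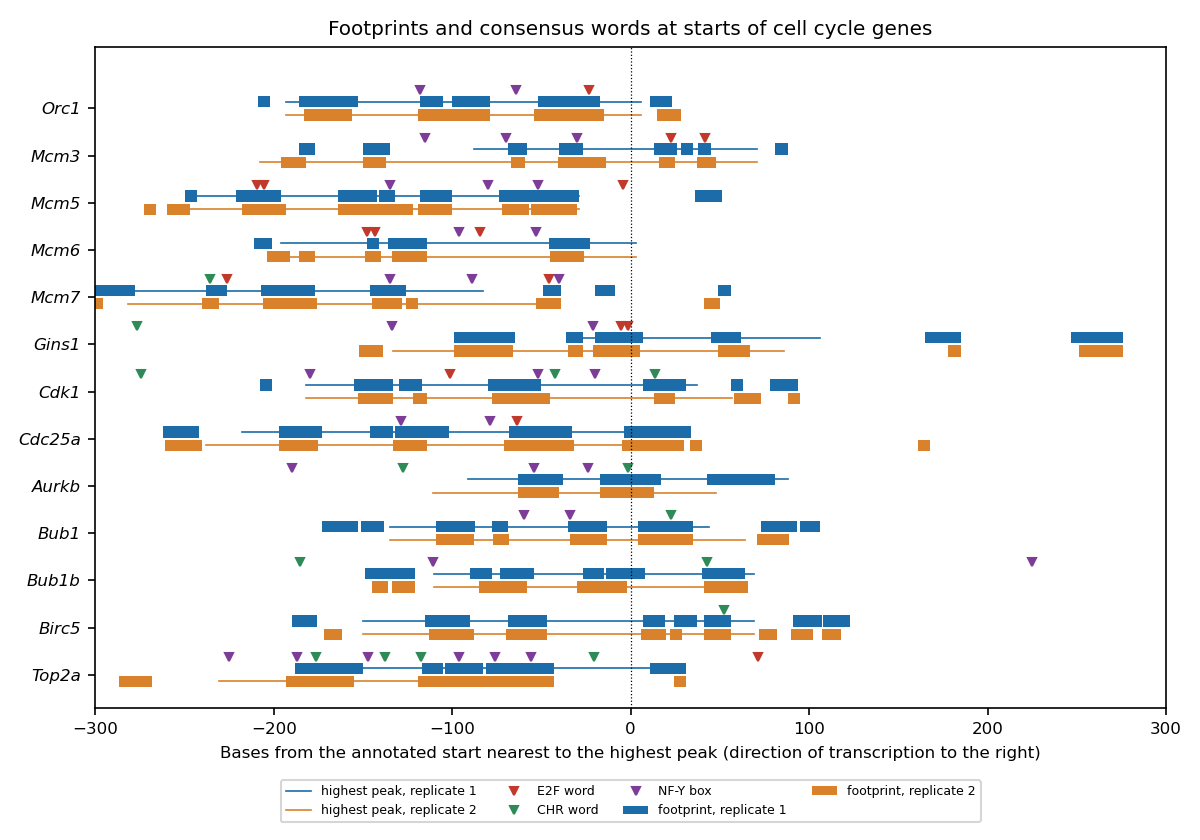
Each row is a member with a footprinted E2F or CHR word in both animals; the horizontal axis is the distance in bases from the annotated start nearest to its highest peak, thin lines are the highest peaks, bars are footprints (replicate 1 above replicate 2) and triangles are consensus words. The bars of both animals fall at nearly the same places, and in Cdk1, Aurkb, Bub1 and Bub1b a bar lies under the CHR triangle within 50 bases of the start.

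**Figure D3:**
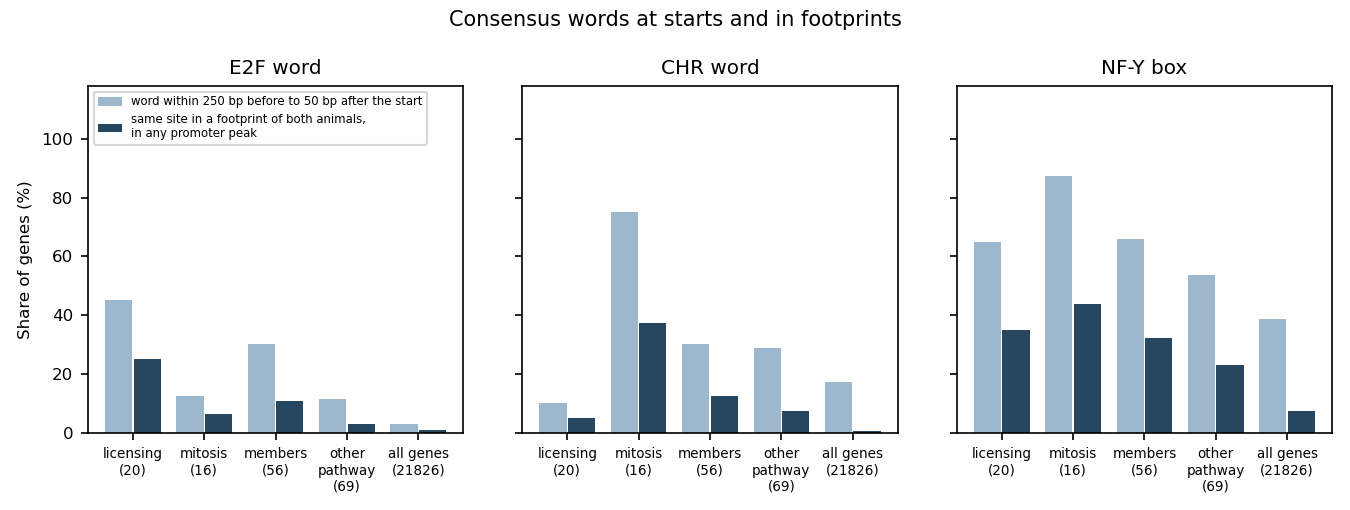
Bars give the share of genes with a consensus word near the start (light) and with the same site in a footprint of both animals anywhere in the promoter peaks (dark, so not a subset of the light bars), for licensing genes, mitotic genes, all 56 members, 69 other genes of the pathway and all 21826 genes. E2F words reach 45% of licensing genes and 12.5% of mitotic genes, and CHR words reach 10% and 75%.

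The transcriptional controllers stood below the replication genes at the median, with a percentile of 47.8 and 43.7 over the 7. E2f7, a repressive E2F, was highest at 14.8 and 9.42, and E2f8, its closest relative, had 11.6 and 8.33. E2f1, an activating E2F, had 13.7 and 7.89, while E2f2, another activator, was lowest at 1.7 and 0.879 (percentiles 19.6 and 12), and in replicate 2 its peak held no footprint, the one such case among the 55.

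Rb1, the retinoblastoma gene, had 6.35 and 4.89 (percentiles 39.1 and 39.3), and Rbl1, which encodes the related p107, had 8.53 and 5.56. Foxm1, an activator of mitotic genes, had 6.33 and 4.03 from a peak shared with Rhno1. E2F words were commonest in this role, at 5 of 7 promoters (71.4%), yet they lay in footprints at 0 of 7 sites in replicate 1 and 1 of 7 in replicate 2. The licensing genes, by contrast, had the word at 9 of 20 promoters and a footprint on 9 of 16 sites, with overlapping words counted separately.

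The CDK inhibitors hold cells out of the cycle, and the pair among the members differed. Cdkn1b, which encodes p27, had 11.9 and 9.23 (percentiles 60.1 and 65) at a promoter of high CpG density. Cdkn1a, which encodes p21, a target of p53, had 4.44 and 3.34 (31.8 and 29.7). It was the only member in the lowest of the 5 CpG classes, which are set around the principal start. No peak of either animal lay within 1 kb of that start. The peak stood beside another start, 2622 to 2841 bases after the principal start in replicate 1. The CpG density around that other start was not computed. In the lowest class 9.87% and 8.15% of all genes were accessible, counting any of their starts.

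Nearly all accessible promoters of members carried footprints, as did nearly all accessible promoters. A footprint overlapped the highest peak at 56 of 56 members in replicate 1 and 54 of 55 in replicate 2 (98.2%), against 97.1% and 95% of all accessible promoters. The median number was 4 for members and 4 for all promoters, in both animals. Footprints covered 36.9% and 31.8% of the bases of the members' highest peaks, against 32.2% and 29.6% over all.

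CpG density, which goes with accessibility across all promoters, was high at the members. Of the 56, 39 (69.6%) fell in the top 2 of the 5 classes, against 40.1% of all genes. Within the middle class, accessible members had a median height of 11 and 7.56, against 6.87 and 5.3 for all accessible genes of the class. In the next class the medians were 13.8 and 9.84, against 11.9 and 8.23, and in the highest class 11.9 and 7.99, against 13.1 and 8.6. Members were thus above the median of their class in the middle and the next class, and below it in the highest class, in both animals. Ranked within its own CpG class, the median licensing gene stood at percentile 69.9 and 66, the median mitotic gene at 55.2 and 55.4, and the median G1 gene at 31.9 and 30.6.

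Away from promoters the members were close to the level of all genes. Distal peaks were counted over the gene body and 10 kb on each side, outside every protein-coding promoter window. The median member had 1.5 in replicate 1 and 1 in replicate 2, against 2 and 1 over all genes, or 5.68 and 4.24 per 100 kb against 5.95 and 4.58. None were found at 13 members in replicate 1 (23.2%) and 14 in replicate 2 (25%), against 27.3% and 32.3% of all genes, and 9 members had none in either animal: Orc6, Mcm7, Gins3, Rrm1, Ccna2, Ccnb1, Birc5, Top2a and Foxm1. The members' distal peaks overlapped one of the other animal in 58.9% and 79.6% of cases, against 63.6% and 79.9% of all distal peaks near genes.

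The members with the most distal peaks were Orc5 with 8 in replicate 1 and 10 in replicate 2, Aurkb with 10 and 8, Ccnd1 with 13 and 3, Cdc6 with 10 and 5, and Rb1 with 7 and 7. The highest flank peak of Cdc6 lies nearest to the start of Rara, 4278 bases away, so the count does not assign the peaks to Cdc6. At Aurkb, 8 peaks that both animals share lay 3837 to 9577 bases before the start in replicate 1, with heights from 2.52 to 10.6, where the Aurkb promoter itself had 4.31.

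At 4 members the chromatin near the gene was more accessible than the promoter in both animals, and at Ccnd1 this held in replicate 1, with no promoter peak to compare in replicate 2. In all, a distal peak was higher than the promoter peak at 5 of 43 members with both (11.6%) in replicate 1 and 6 of 41 (14.6%) in replicate 2, against 28.5% and 27.5% of all genes with both. The recurrent ones were Ccnd2, Aurkb, E2f2 and Cdkn1a, and in replicate 2 alone Orc5 and Cdk6. The low promoters of Ccnd1, Ccnd2 and Cdkn1a thus had a higher peak within the gene.

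Ccnd1 held a peak of 13.3 in replicate 1 and 7.91 in replicate 2 at chr7:144937581-144937740, in an intron, 2209 bases from the start in replicate 1, at percentiles 98.9 and 98.1 among distal peaks. In replicate 1 it was 9.74 times as high as the promoter peak. Cdkn1a held one of 20.2 and 13.2 in an intron, 1789 and 1739 bases from the nearest start (percentile 99.7 in both), 4.55 and 3.96 times as high as its promoter peak. Ccnd2 held one of 4.53 and 2.84, in an exon of a transcript form with no annotated coding part, 7.46 and 5.88 times as high as its promoter peak.

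**Figure D4:**
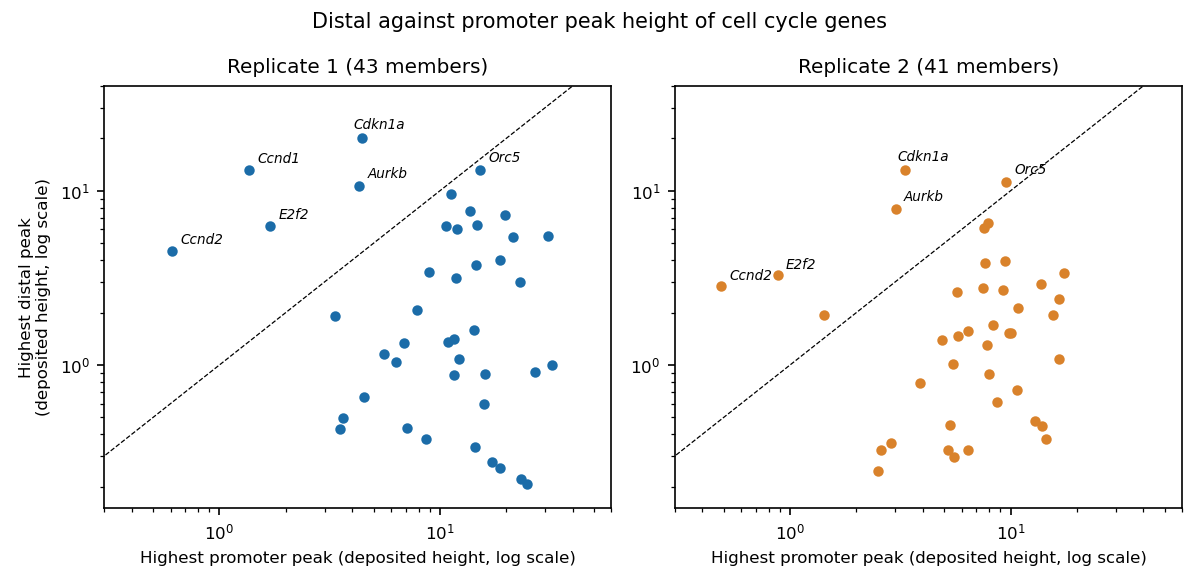
Each point is a member with both a promoter and a distal peak; the horizontal axis is its highest promoter peak and the vertical axis its highest distal peak, both as deposited heights on log scales, with the dashed line at equal height. In replicate 1 the points above the line are Ccnd1, Ccnd2, E2f2, Aurkb and Cdkn1a; Ccnd1 is missing from replicate 2 because it had no promoter peak.

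The bases that both animals share in these 3 gene body peaks are printed on the gene's strand of mm10, with capitals for bases in footprints of both animals.
Ccnd1, chr7:144937581-144937740 (-): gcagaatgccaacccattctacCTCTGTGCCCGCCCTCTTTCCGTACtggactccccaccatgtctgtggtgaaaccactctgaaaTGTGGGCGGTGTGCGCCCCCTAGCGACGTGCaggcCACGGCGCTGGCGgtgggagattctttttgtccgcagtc
Ccnd2, chr6:127147781-127147980 (-): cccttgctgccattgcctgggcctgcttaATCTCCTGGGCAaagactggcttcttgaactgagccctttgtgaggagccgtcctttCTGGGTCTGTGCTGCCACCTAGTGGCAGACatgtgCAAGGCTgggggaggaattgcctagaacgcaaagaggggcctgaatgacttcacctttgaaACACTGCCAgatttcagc
Cdkn1a, chr17:29095441-29095680 (+): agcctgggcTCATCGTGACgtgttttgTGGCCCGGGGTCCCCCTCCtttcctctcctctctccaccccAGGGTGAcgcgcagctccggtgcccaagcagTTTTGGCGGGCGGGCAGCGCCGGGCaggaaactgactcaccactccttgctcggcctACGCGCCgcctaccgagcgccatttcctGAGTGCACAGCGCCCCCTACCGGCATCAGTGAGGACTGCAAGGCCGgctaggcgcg

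In each of the 3 the capitals include a stretch with the core of the CTCF site, the insulator and loop-anchor protein, read as the word AGGGGGC, the word AGGTGGC, the word AGAGGGC or the word AGATGGC on either strand. This search was made after the sequences had been seen, so its outcome at the 3 peaks is a description. At E2f2 the highest distal peak of replicate 1 also held the core in a footprint, while the highest peaks at Aurkb and Orc5 did not. Over all members' distal peaks a core lay in a footprint in 19.2% and 19.3%, against 17.4% and 17.3% of all distal peaks near genes. Among distal peaks in the top 10% of height the shares were 23.1% of 26 and 12.5% of 16 at members, against 44.1% and 37% at all genes, so a footprinted core is common in high distal peaks generally.

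**Figure D5:**
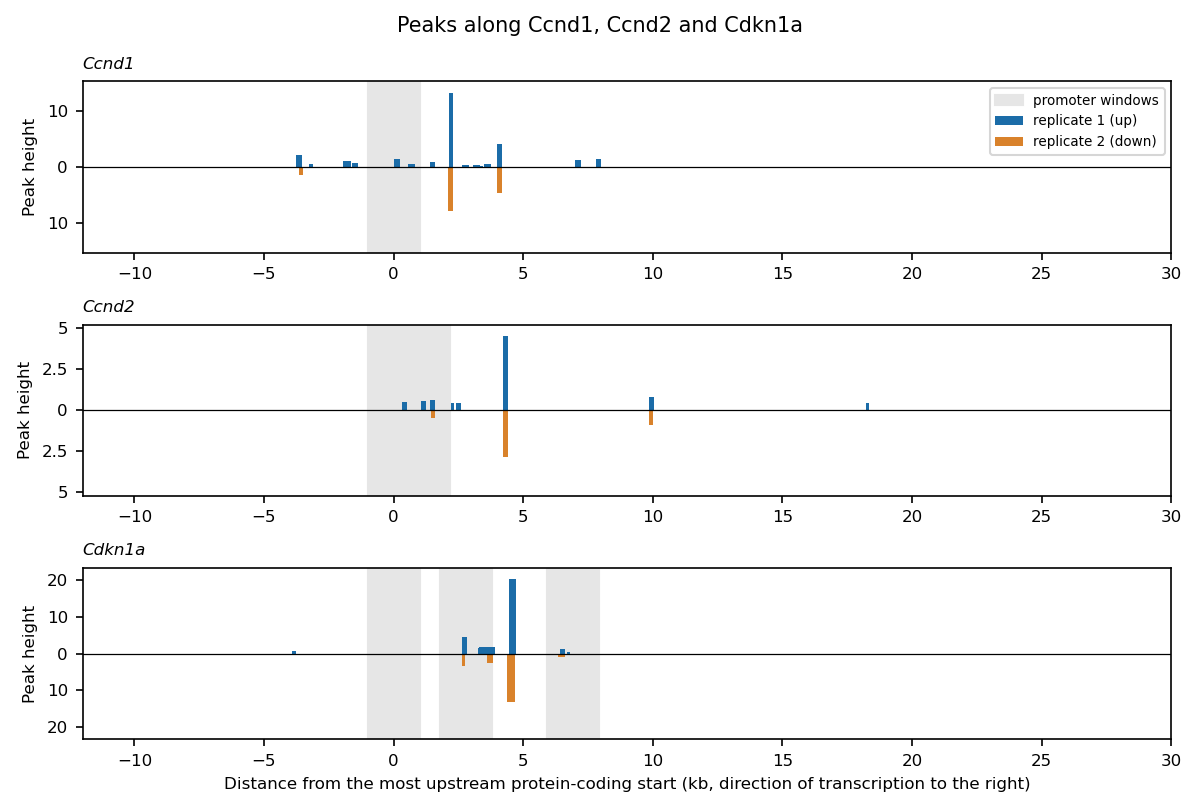
Bars are peaks at their distance in kb from the most upstream protein-coding start, with the deposited height of replicate 1 drawn upwards and of replicate 2 downwards, and promoter windows in grey. In all 3 genes the highest bar stands outside the grey windows, at 13.3 and 7.91 in Ccnd1, 4.53 and 2.84 in Ccnd2 and 20.2 and 13.2 in Cdkn1a.

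The other genes of the pathway were likewise nearly all accessible. Of 69 further genes of replication, checkpoint, mitosis and cell cycle control, 68 were accessible in each animal (98.6%), against 67% and 63.5% of all genes. Of the 69, 50 (72.5%) fell in the top 2 of the 5 CpG classes, in which 93.6% to 98.4% of all genes were accessible. The median percentile of the accessible ones was 62.3 and 61.1, against 50 for all. The exception was Tk1, the thymidine kinase of S phase, with no promoter peak in either animal. No base of its promoter window lay below a false discovery rate of 0.05 in either. Outside that window Tk1 had 7 and 4 distal peaks. The highest, of 4.51 and 2.47 (percentiles 91.6 and 84.3 among distal peaks), lay within the gene at overlapping places. In replicate 1 it spanned chr11:117824741-117824920, with the only start at 117826092. The highest were Fzr1 at 47.3 and 29 (percentile 99.9 in both), which encodes Cdh1, the activator of the anaphase-promoting complex in G1 and in resting cells, Cdkn2d at 28.9 and 20.8, which encodes the inhibitor p19, and the checkpoint kinase gene Chek2 at 23.4 and 20.5, from a peak shared with Hscb.

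The remaining genes with a CDK inhibitor name were lower than Cdkn2d. Cdkn2c had 8.55 and 4.9, Cdkn3 had 4.06 and 3.7, Cdkn2b had 3.14 and 1.39, Cdkn1c had 1.39 and 1.1, and Cdkn2a had 0.9 and 0.504. Of all genes with such a name, members included, Cdkn2d and Cdkn1b alone stood above the median promoter in both animals. The name does not say that each product acts as an inhibitor.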

How the data were processed

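DNase-seq of cerebellum gave 1 library from each of 2 animals, which the labels place in 1 group. The authors deposited, per animal and on mm10, a larger and a smaller peak list, footprints, and false discovery rates along the genome. Peak height is a signal as deposited by the authors, and it was used only to describe and rank peaks within 1 animal's list. Per the labels and file names, the deposited rate file holds adjusted p-values (false discovery rates), listing only stretches under 0.05; every footprint carries the entry 0.01, which was not used. Each file came from that animal alone. The aligner, the callers and the height scaling were not given in the sources used here. The depth is unknown, so no interval was computed.

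Promoters (1000 bp on both sides of starts), distal peaks (10000 bp flanks), the CpG classes (500 bp on both sides of the principal start) and the consensus words were computed with Python 3.11.15, NumPy 2.4.6, SciPy 1.17.1 and pysam 0.24.0 from GENCODE M21 and the GRCm38.p6 assembly, and checked on simulated data. Where a peak touched a promoter window by at least 1 bp it counted. Peaks in windows of several genes count for each. The members, the other lists and the words were chosen with earlier results of these data known. All 56 members could be named. Full values were kept for the G1 genes, the CDK inhibitors, the highest and lowest of each role, those without a peak, the 5 with the most distal peaks and those with footprinted words, and other members' values were added. Of the other pathway genes, those without a peak, the 3 highest by mean percentile and those with a CDK inhibitor name were given. Alternative windows, peak lists, scales and single animals were tried.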

Additional observations from a re-analysis of the deposited data

How the results depend on the processing

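With 1 group, no paired analysis was possible because there were no groups to pair. The share of members with a promoter peak, 99.1% as the mean of both animals, was the same with windows of 500 or 2000 bp or by peak midpoint. The share over all genes was not given for these settings. With the smaller peak lists the members' share fell to 97.3%, against 62.9% and 59.7% of all genes. In these lists Ccnd1, Ccnd2 and E2f2 had no promoter peak in replicate 2. The median percentile, 58.6, was 56.1 with the smaller lists, 55.9 with summed heights and 56.9 within CpG classes. The median number of distal peaks, 1.25, was 0 in the gene body alone (1 and 0 over all genes) and 5.5 with flanks of 50000 bp (6 and 5 over all genes). The share of members with an E2F word, 30.4%, was 44.6% within 500 bp on both sides, against 7.31% of all genes. The share of E2F sites in footprints, 39.7%, was 50.8% when any base of the site counted: replicate 1 moved to 59.3% and replicate 2 kept its 42.3%, against 37.8% and 35% of such sites over all genes. Single animals gave 98.2% to 100% for promoter peaks, 57.4 to 59.7 for the percentile, 1 to 1.5 for distal peaks, 98.2% to 100% for footprints in promoter peaks and 37% to 42.3% for E2F sites. Depth is unknown and could not be matched between the animals: replicate 2 had 114404 peaks and 262603 footprints and replicate 1 had 140127 and 342409. Whether elements found in replicate 1 alone reflect depth was not tested.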

Other observations

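Other consensus words were also counted at the members. The SP word GGGCGG lay near the start of 78.6% of members, against 45.3% of all genes and 76.8% of genes in the top 2 of 5 CpG classes, and the same site lay in a footprint of both animals at 58.9% of members, against 29.2% of all genes and 53.5% of those in the top 2 CpG classes. The ETS word CCGGAAG was present at 21.4% of members, against 11.2% of all genes and 18.1% in the top 2 CpG classes, and was footprinted in both animals at 3.57% of members, against 4.96% and 8.46%. The CRE word TGACGTCA was footprinted in both animals at 2 members, Mcm5 and Ccna2 (3.57%, against 2.31% of all genes and 3.93% in the top 2 CpG classes). All of these words were searched for on both strands.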
